A study of Mus musculus with 6 samples.

Results

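The transcripts described here encode collagens, other proteins of the extracellular matrix, the enzymes that process and crosslink collagen, and 3 surface proteins of mesenchymal cells, in RNA-Seq of mouse bone marrow-derived macrophages (BMDM). The members were the rows of the count table whose gene symbol was on a list of 46 symbols, and all 46 were present among the 55453 genes listed. Of these 46, 42 had enough counts to be tested among 13680 genes, and *Col14a1*, *Eln*, *Mfap2* and *Lum* had not. The symbols were chosen by what the genes encode and not by a cutoff on a measured level, but with earlier results of these data known. The shares called below therefore describe the list and are no independent test of it.

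The series holds 6 libraries of C57BL/6 BMDM, 3 with the genotype PP2A KO and 3 WT, and all of them had poly(A)-selected RNA. PP2A KO cells came from *LysMcre PP2Ac fl/fl* mice, in which exon 1 of *Ppp2ca*, the gene of the catalytic subunit of protein phosphatase 2A, is flanked by loxP sites and Cre is driven by the lysozyme 2 (LysM) promoter of myeloid cells, so that a cell without that promoter's activity keeps the gene. WT cells came from mice of another source, without a Cre or floxed control of the same colony, so genotype and colony cannot be told apart; the mice of the study were 6 to 10 weeks old and of both sexes, and the age and sex behind each library are not given in the sources used here. The labels give no treatment, while the results and a figure legend of the study describe RNA-Seq of BMDM treated with the STING agonist cGAMP. Bone marrow was grown with M-CSF or with medium conditioned by L929 fibroblasts, with no statement of which was used for these libraries.

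Fibrillar collagens are secreted as triple-helical procollagens, which chaperones and prolyl and lysyl hydroxylases assist in the endoplasmic reticulum. Proteinases trim them outside the cell, and lysyl oxidases crosslink the fibrils, on which fibronectin, small proteoglycans and glycoproteins assemble. Fibroblasts, pericytes and smooth muscle cells are the main makers of this interstitial matrix. Basement membranes are sheets of collagen IV, laminins, nidogens and perlecan, and macrophages are better known for matrix degradation and for secreting osteopontin and fibronectin than for making fibrils.

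Library totals ran from 35257156 to 47390899 counts, at which 3 counts, the limit that a count of 0 allows, equal 0.0604 to 0.0909 CPM (counts scaled to library size with TMM factors). These limits cover counting error only. *Ppp2ca* itself had 47, 33 and 38 counts in PP2A KO and 10654, 8913 and 8279 in WT, in the direction of the labels. Most macrophage markers were abundant, with 44390 to 68166 counts of *Adgre1* (F4/80) over the 6 libraries. The 10 markers listed summed to 9379 to 9465 CPM in PP2A KO and 7918 to 8447 CPM in WT. *Lyz2* (lysozyme 2), whose promoter drives Cre, was the lowest of the 10, at 260 to 421 counts, and the reason was not tested. The labels do not say that replicates are separate cultures or animals, so p-values measure only the spread between these samples.

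Most collagen and matrix transcripts were lower in PP2A KO than in WT. Of the 42 members tested, 35 fell, 1 rose and 6 were not called, at an adjusted p under 0.05 (the quasi-likelihood test of edgeR, adjusted by Benjamini-Hochberg over all 13680 genes). Over all genes tested the same rule called 19.0% lower and 18.1% higher. With upper-quartile scaling, which moved the all-gene split from 2604 lower and 2470 higher to 3356 and 2095, the members split into 36 lower and 1 higher. The study's threshold for genes higher in PP2A KO was a log2 fold change over 1 at an adjusted p under 0.01, and it was mirrored here for lower genes. With it, 31 members were lower and 1 higher, against 2.99% and 3.36% of all genes. In 36 members the 3 PP2A KO libraries lay below the 3 WT libraries in CPM, in 1 they lay above, and in 5 the groups overlapped. This pattern covered 26.8% of all genes for lower and 24.0% for higher. The median log2 fold change (PP2A KO minus WT) of the 42 members was -1.64, beside -0.02 over all genes, and single members ran from -2.52 in *Col8a1* to 1.34 in *Vcan*.

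**Figure D1:**
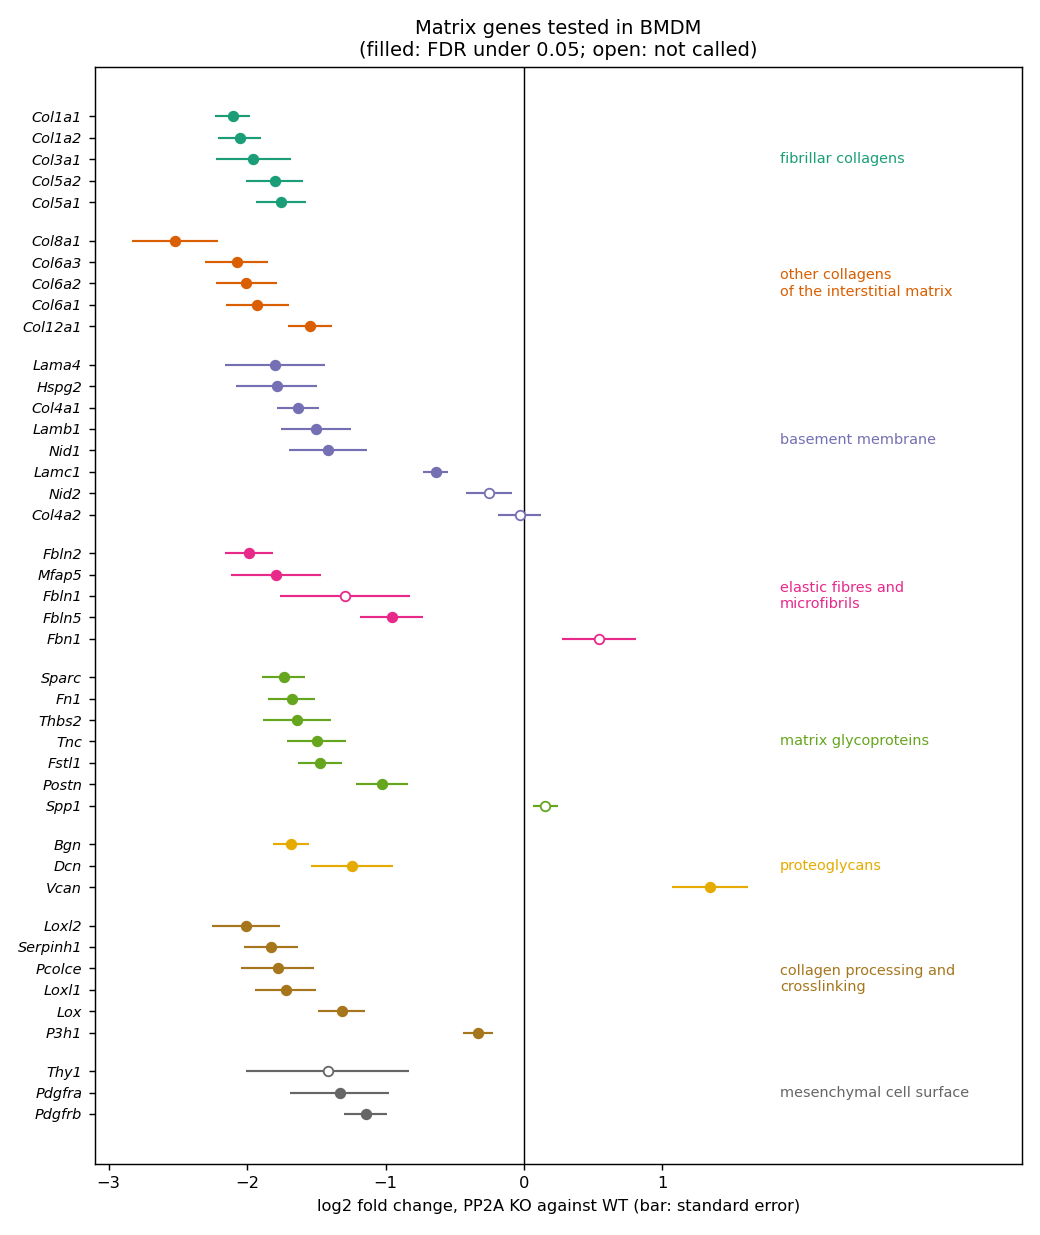
Log2 fold change (PP2A KO minus WT) of the 42 members tested, grouped by role, with the standard error as bars. Most points lie between -1 and -2.5, while *Col4a2*, *Spp1*, *Nid2* and *P3h1* lie near 0 and *Fbn1* and *Vcan* lie above it.

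All 10 interstitial collagen chains tested fell. *Col1a1* encodes the α1 chain of type I collagen, the main fibril protein of bone, skin and tendon, and lies at chr11:94936224-94953042 (forward strand, GRCm38). It had 362, 235 and 278 counts in PP2A KO and 1722, 1510 and 1120 counts in WT. The groups did not overlap, with 7.44 ± 0.976 CPM (SD, n = 3) in PP2A KO and 32.0 ± 4.60 CPM (SD, n = 3) in WT. On the log2 scale *Col1a1* changed by -2.10 (standard error, SE, 0.13, adjusted p = 3.90e-05 by edgeR). *Col1a2*, at chr6:4504814-4541544 on the forward strand, encodes the α2 chain of the same protein. Its counts were 402, 308 and 274 in PP2A KO and 1823, 1718 and 1208 in WT. They too were separate between the groups, with a log2 fold change of -2.05 (SE 0.16, adjusted p = 5.65e-05 by edgeR).

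*Col3a1*, which encodes the homotrimeric type III collagen of extensible tissues, lies at chr1:45311538-45349706 on the forward strand of GRCm38, close to *Col5a2* at chr1:45374321-45503282 on the reverse strand. It had 141, 111 and 107 counts in PP2A KO and 704, 633 and 292 in WT. WT replicate 3 was the lowest of WT, yet it lay above all PP2A KO libraries. For *Col3a1* the log2 fold change was -1.95 (SE 0.27, adjusted p = 5.97e-04 by edgeR). *Col5a1* and *Col5a2*, the chains of type V collagen, which starts type I fibrils, had log2 fold changes of -1.76 and -1.80 (adjusted p = 1.60e-04 and 2.54e-04 by edgeR). *Col5a1* had 111, 57 and 78 counts in PP2A KO and 373, 340 and 243 in WT, and *Col5a2* had 223, 139 and 125 and 878, 608 and 492, neither with overlap. All 5 fibrillar chains together summed to 20.7 to 29.2 CPM in PP2A KO and 80.0 to 111 CPM in WT.

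Type VI collagen forms beaded filaments around cells from the products of *Col6a1*, *Col6a2* and *Col6a3*. *Col6a1* had 97, 75 and 55 counts in PP2A KO and 393, 379 and 234 in WT. The counts of *Col6a2* were 66, 60 and 49 in PP2A KO and 370, 267 and 189 in WT, and those of *Col6a3* were 74, 62 and 44 and 382, 296 and 210. No library of PP2A KO reached a WT library in any of the 3, and the log2 fold changes were -1.93, -2.01 and -2.07 (adjusted p = 3.05e-04, 2.14e-04 and 2.09e-04 by edgeR). *Col8a1*, a short-chain network collagen of vessel walls, had 30, 10 and 26 counts in PP2A KO and 207, 139 and 95 in WT. Its log2 fold change of -2.52 (SE 0.31, adjusted p = 3.58e-04 by edgeR) was the lowest among the 42 members, from few counts. *Col12a1*, which encodes a fibril-associated collagen, had 67, 48 and 53 counts in PP2A KO and 226, 193 and 149 in WT and fell by 1.54 on the log2 scale (adjusted p = 1.58e-04 by edgeR). *Col14a1*, another fibril-associated collagen, had 5, 3 and 6 counts in PP2A KO and 11, 14 and 5 in WT, too few for the test, and its groups overlapped. Of the 13 collagen chains among the members, 12 were tested, 11 fell, and the median log2 fold change was -1.94.

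The upstream sequences of 3 members are shown so that a fibrillar collagen and a proteoglycan that fell can be read beside the only member that rose. They are the 250 bases before the RefSeq gene start in GRCm38.p6, on the gene's strand, for *Col3a1* (chr1:45311288-45311537, forward), *Bgn* (chrX:73483351-73483600, forward) and *Vcan* (chr13:89742513-89742762, reverse). Capitals mark matches on either strand to the CCAAT box (CCAAT), to the TATA box (TATAAA), to the GC box (GGGCGG) or to the core read by TEAD factors (GGAATG). Matches of different motifs did not overlap in these windows, and 2 GGGCGG matches of *Bgn* shared bases with each other.
Col3a1: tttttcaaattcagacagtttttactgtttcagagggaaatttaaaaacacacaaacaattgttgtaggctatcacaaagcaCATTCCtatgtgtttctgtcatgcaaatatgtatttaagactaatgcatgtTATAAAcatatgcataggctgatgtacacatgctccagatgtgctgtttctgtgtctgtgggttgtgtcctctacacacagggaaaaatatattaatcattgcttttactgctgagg
Bgn: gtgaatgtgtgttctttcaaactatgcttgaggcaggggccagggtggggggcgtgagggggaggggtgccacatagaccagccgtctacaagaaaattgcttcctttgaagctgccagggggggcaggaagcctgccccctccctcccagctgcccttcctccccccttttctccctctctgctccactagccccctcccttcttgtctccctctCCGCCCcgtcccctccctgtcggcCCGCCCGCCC
Vcan: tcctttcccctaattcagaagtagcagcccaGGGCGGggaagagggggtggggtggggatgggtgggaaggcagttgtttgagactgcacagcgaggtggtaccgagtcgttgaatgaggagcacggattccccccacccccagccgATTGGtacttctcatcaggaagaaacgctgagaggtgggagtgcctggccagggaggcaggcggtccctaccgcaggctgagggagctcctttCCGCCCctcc
The *Col3a1* window held 1 TATAAA match and 1 GGAATG match on the reverse strand, and had a GC content of 35.2%. The *Bgn* window held 3 GGGCGG matches and the *Vcan* window 2, with 1 CCAAT match in *Vcan*, and their GC contents were 64.4% and 62.4%. RefSeq windows were matched for 29 of the 46 members, 23 of which were called lower. GGGCGG (reverse complement CCGCCC) was in 65.2% of these 23 and in 59.0% of the 10066 windows of genes tested. CCAAT (reverse complement ATTGG) was in 30.4% and 36.7%, TATAAA (reverse complement TTTATA) in 13.0% and 6.3%, and GGAATG (reverse complement CATTCC) in 13.0% and 10.1%, the latter 2 from 3 windows each. Over all 27025 windows of this length in the table the shares were 32.9%, 34.5%, 13.0% and 12.6% in the same order. These matches describe letters in a window and are not binding sites.

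The 2 main chains of type IV collagen, the network collagen of basement membranes, had different calls. *Col4a1* (chr8:11198423-11312826, reverse strand of GRCm38) and *Col4a2* (chr8:11312805-11449287, forward strand) lie head to head, and their first exons overlap by 22 bases in the GENCODE annotation. *Col4a1* had 268, 160 and 186 counts in PP2A KO and 929, 693 and 583 in WT, with separate groups. This was a log2 fold change of -1.63 (SE 0.15, adjusted p = 1.03e-04 by edgeR). *Col4a2* had 647, 419 and 419 counts in PP2A KO and 748, 533 and 479 in WT. These groups overlapped, with 12.7 ± 2.61 CPM (SD, n = 3) in PP2A KO and 12.9 ± 1.90 CPM (SD, n = 3) in WT. Its log2 fold change was -0.03 (SE 0.15, adjusted p = 0.896 by edgeR), and it turned to 0.12 without PP2A KO replicate 3 and to 0.10 without WT replicate 1, none of them called.

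The ratio of *Col4a2* to *Col4a1* counts was 2.41, 2.62 and 2.25 in the PP2A KO libraries and 0.805, 0.769 and 0.822 in the WT libraries. The groups were far apart, at 2.43 ± 0.183 (SD, n = 3) and 0.799 ± 0.0268 (SD, n = 3). An exact permutation test over the 20 arrangements of the libraries gave a 2-sided p of 0.1, the smallest that 3 against 3 libraries can give, and 0.6 after adjustment over the 6 chain ratios computed, which were chosen after the counts were seen. The ratio of *Col1a2* to *Col1a1* was 1.14 ± 0.164 in PP2A KO and 1.09 ± 0.0411 in WT (SD, n = 3 each, 2-sided exact permutation p = 0.8). *Col3a1* to *Col1a1* was 0.416 in PP2A KO and 0.363 in WT on average, *Col5a2* to *Col5a1* 2.02 and 2.06, *Col6a2* to *Col6a1* 0.790 and 0.818, and *Col6a3* to *Col6a1* 0.797 and 0.883. The libraries of both groups overlapped in these 4 ratios and in that of *Col1a2*, and the adjusted p of each of these 5 was 0.9 by the exact permutation test. Raw counts are not divided by gene length, so only a change of a ratio between groups can be read.

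**Figure D2:**
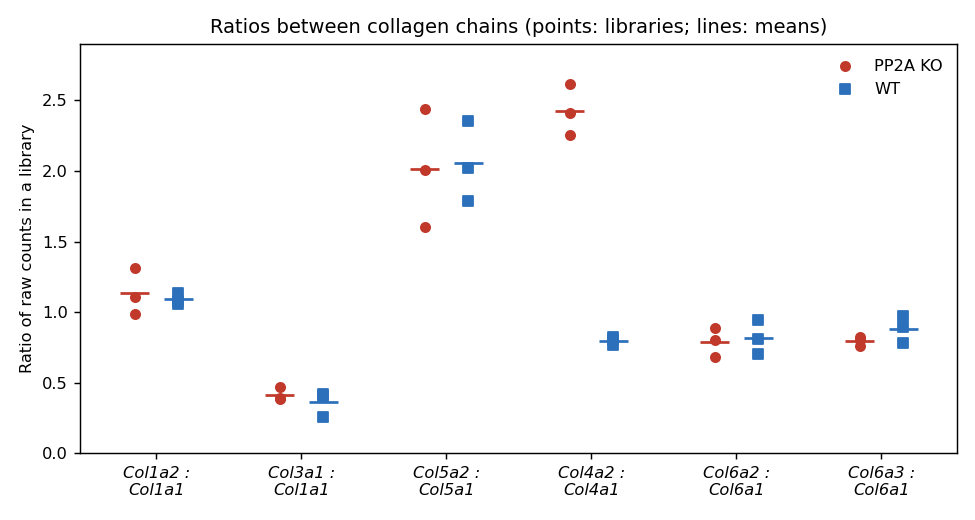
Ratio of raw counts of collagen chains in each library (points; lines are group means), for 6 pairs of chains. The *Col4a2* to *Col4a1* ratio is 2.25 to 2.62 in PP2A KO and 0.769 to 0.822 in WT, while the groups overlap in the other 5 pairs.

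The other basement membrane members ranged widely. *Lamc1*, the laminin γ1 chain found in most laminin trimers, was the most abundant of them and had 1860, 1196 and 1541 counts in PP2A KO and 3289, 2488 and 2465 in WT. The groups did not overlap, and the log2 fold change was -0.64 (SE 0.09, adjusted p = 6.40e-04 by edgeR). *Lama4* and *Lamb1*, the α4 and β1 laminin chains of vessels and connective tissue, fell, with log2 fold changes of -1.80 and -1.50 (adjusted p = 0.00410 and 0.00154 by edgeR). *Lama4* had 14, 13 and 6 counts in PP2A KO and 56, 50 and 29 in WT, and *Lamb1* had 45, 31 and 22 and 128, 113 and 82, both with separate groups. *Hspg2*, which encodes the heparan sulfate proteoglycan perlecan, had 78, 34 and 31 counts in PP2A KO and 261, 167 and 145 in WT and fell by 1.79 (adjusted p = 0.00142 by edgeR). The nidogens link laminin to collagen IV. *Nid1* had 71, 21 and 37 counts in PP2A KO and 142, 117 and 133 in WT, a log2 fold change of -1.42 (adjusted p = 0.00378 by edgeR). *Nid2*, by contrast, had 136, 106 and 97 and 170, 171 and 127 counts, overlapping groups and a log2 fold change of -0.25 (adjusted p = 0.264 by edgeR). Its exons share 437 bases with *Rtraf* on the opposite strand, a gene with 2623 to 3708 counts per library, and the strand setting of the counting is not given in the sources used here, so reads of *Nid2* and *Rtraf* may not be told apart.

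Among genes of elastic fibres and microfibrils, 2 of 3 fibulins fell and fibrillin 1 was not called. *Fbln2*, a fibulin that bridges fibronectin, laminin and elastin, had 233, 105 and 142 counts in PP2A KO and 804, 671 and 700 in WT, with a log2 fold change of -1.99 (SE 0.17, adjusted p = 8.39e-05 by edgeR). *Fbln5*, needed for elastic fibre assembly, had 24, 30 and 36 and 86, 64 and 54 counts and fell by 0.96 (adjusted p = 0.00990 by edgeR), and *Mfap5*, a microfibril glycoprotein, had 9, 6 and 5 and 32, 21 and 28 counts and fell by 1.79 (adjusted p = 0.00236 by edgeR). PP2A KO and WT libraries were separate in all 3 of these genes, and *Mfap5* passed the filter on low counts through its WT libraries. *Fbln1* had 8, 1 and 5 counts in PP2A KO and 16, 11 and 13 in WT. Its groups did not overlap and its log2 fold change of -1.30 had an adjusted p of 0.0563 by edgeR, 0.0352 with the replicate number as a block, and 0.0383 without PP2A KO replicate 1. *Fbn1*, the main microfibril protein, had 770, 329 and 399 counts in PP2A KO and 571, 321 and 292 in WT. The groups overlapped, and the first replicate was the highest of both. *Fbn1* had a log2 fold change of 0.54 (SE 0.27, adjusted p = 0.141 by edgeR), with an adjusted p of 1.34e-04 under the replicate block and 0.0333 without WT replicate 1. *Eln* (elastin) had 1, 1 and 3 counts in PP2A KO and 1, 2 and 5 in WT and *Mfap2*, another microfibril glycoprotein, had 1, 0 and 3 and 0, 4 and 1, mostly within the limit that a count of 0 allows.

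The matrix glycoproteins and proteoglycans held both the most abundant member and the only one that rose. *Spp1* encodes osteopontin, a secreted phosphoprotein of bone and of activated macrophages, and lies at chr5:104435118-104441050 (forward strand, GRCm38). It had 39914, 35236 and 39233 counts in PP2A KO and 45805, 40920 and 32918 in WT. Per length it reached 596 RPKM (reads per kilobase of union exon, scaled to library size) in PP2A KO and 536 in WT, while no other member exceeded 7.34 RPKM in either group mean. Its libraries overlapped, with 983 ± 73.2 CPM (SD, n = 3) in PP2A KO and 883 ± 85.0 CPM (SD, n = 3) in WT. The log2 fold change of *Spp1* was 0.15 (SE 0.09, adjusted p = 0.216 by edgeR), and the adjusted p with the replicate block was 0.0212. *Spp1* made up 79.2 to 84.1% of all member counts in PP2A KO libraries and 64.2 to 66.8% in WT libraries. Without it, the members summed to 246.5, 203.5 and 177.8 CPM in PP2A KO and 513.3, 489.9 and 390.9 CPM in WT.

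The remaining 6 glycoproteins all fell. *Fn1*, which encodes fibronectin, the adhesive scaffold on which collagen is laid down, had 269, 170 and 176 counts in PP2A KO and 802, 615 and 843 in WT. The groups were separate and the log2 fold change was -1.68 (SE 0.17, adjusted p = 1.45e-04 by edgeR). *Sparc*, a collagen-binding protein also called osteonectin, had 298, 259 and 250 and 1295, 1094 and 751 counts, likewise without overlap, and a log2 fold change of -1.74 (SE 0.15, adjusted p = 9.29e-05 by edgeR). Tenascin C (*Tnc*), thrombospondin 2 (*Thbs2*) and the follistatin-like glycoprotein *Fstl1* fell, with log2 fold changes of -1.50, -1.64 and -1.48 (adjusted p = 7.30e-04, 8.87e-04 and 1.97e-04 by edgeR). *Tnc* had 267, 144 and 148 counts in PP2A KO and 820, 565 and 448 in WT, *Thbs2* had 66, 47 and 60 and 242, 259 and 125, and *Fstl1* had 351, 268 and 265 and 1243, 939 and 691. The groups were separate in each. Periostin (*Postn*), which binds tenascin and collagen I, had 45, 49 and 53 counts in PP2A KO and 112, 132 and 103 in WT and fell by 1.03 (adjusted p = 0.00249 by edgeR).

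**Figure D3:**
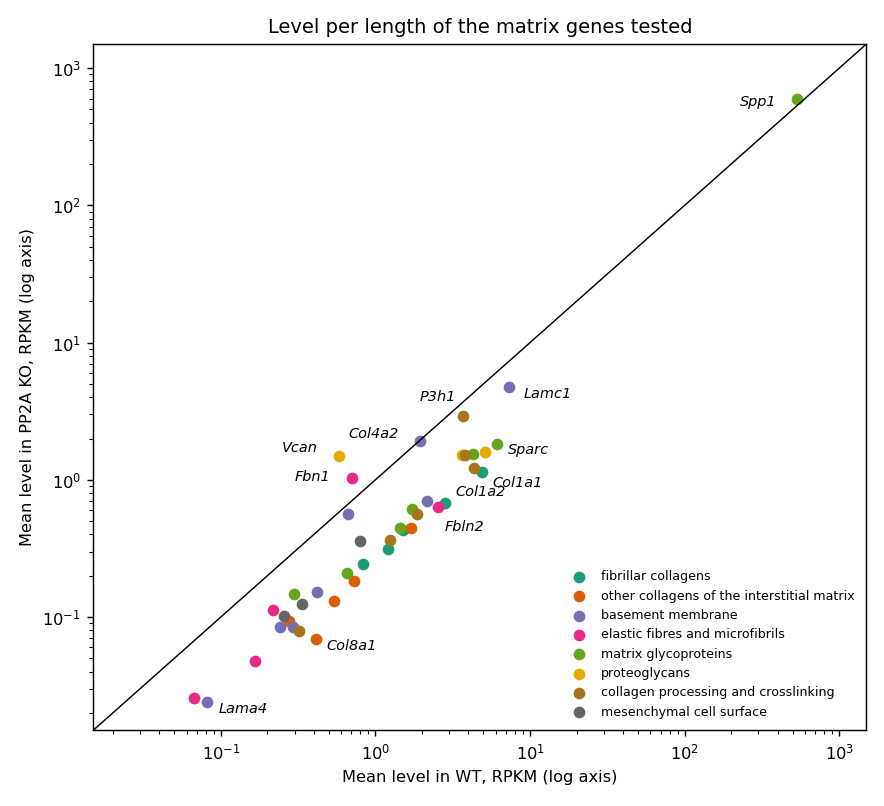
Mean level per length (RPKM, log axes) of the 42 members in WT (x) and PP2A KO (y), coloured by role; the line marks equal levels. *Spp1* lies near the line, at 536 RPKM in WT, nearly all other members lie below the line at under 8 RPKM, and *Vcan* and *Fbn1* lie above it.

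*Vcan* encodes versican, a large hyaluronan-binding chondroitin sulfate proteoglycan that myeloid cells also make, and lies at chr13:89655312-89742509 (reverse strand, GRCm38). It had 1261, 631 and 660 counts in PP2A KO and 588, 330 and 250 in WT. In CPM all 3 PP2A KO libraries were above the WT libraries, at 21.6 ± 7.27 CPM (SD, n = 3) against 8.46 ± 3.03 CPM (SD, n = 3), and replicate 1 was the highest of each group. That gave *Vcan* a log2 fold change of 1.34 (SE 0.27, adjusted p = 0.00451 by edgeR). Its adjusted p was 0.0153 without PP2A KO replicate 1, 0.0111 without PP2A KO replicate 2 and 0.0221 without WT replicate 2, so it passed 0.05 but not the study's 0.01 in those fits. The small leucine-rich proteoglycans went the other way. *Bgn* (biglycan), at chrX:73483602-73495933, had 446, 312 and 388 counts in PP2A KO and 1672, 1536 and 1045 in WT and a log2 fold change of -1.68 (SE 0.13, adjusted p = 5.90e-05 by edgeR). *Dcn* (decorin), which binds and spaces collagen fibrils, had 512, 256 and 289 and 1107, 1258 and 519 counts and a log2 fold change of -1.25 (SE 0.30, adjusted p = 0.00953 by edgeR). Its lowest WT library, at 12.4 CPM, stood just above its highest PP2A KO library, at 12.1 CPM, and with RLE scaling the groups of *Dcn* overlapped. *Lum* (lumican) had 0, 3 and 0 counts in PP2A KO and 4, 2 and 6 in WT, too few for the test.

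The 6 members that process or crosslink collagen all fell, by unequal amounts. *Loxl2*, a lysyl oxidase active on collagen IV, had 14, 14 and 22 counts in PP2A KO and 104, 68 and 63 in WT and fell by 2.01 (SE 0.25, adjusted p = 3.62e-04 by edgeR). *Lox* and *Loxl1*, which crosslink collagen and elastin, fell, with log2 fold changes of -1.32 and -1.72 (adjusted p = 4.49e-04 and 4.32e-04 by edgeR). *Lox* had 262, 285 and 294 counts in PP2A KO and 1050, 835 and 578 in WT, and *Loxl1* had 96, 54 and 69 and 303, 339 and 189, without overlap. *Serpinh1*, the collagen chaperone HSP47, had 151, 109 and 86 counts in PP2A KO and 532, 527 and 368 in WT and a log2 fold change of -1.83 (SE 0.19, adjusted p = 1.86e-04 by edgeR). *Pcolce*, the enhancer of procollagen C-proteinase, had 75, 53 and 34 and 272, 226 and 151 counts and fell by 1.78 (adjusted p = 8.72e-04 by edgeR), and its exons share 112 bases with *Gm36266* on the opposite strand, which had 29 to 85 counts. *P3h1*, a prolyl 3-hydroxylase of the endoplasmic reticulum, had 418, 403 and 487 counts in PP2A KO and 617, 661 and 623 in WT, the smallest fall of the 35, with a log2 fold change of -0.33 (SE 0.11, adjusted p = 0.0385 by edgeR). That call was lost without PP2A KO replicate 1 (adjusted p = 0.130), PP2A KO replicate 3 (0.0690), WT replicate 2 (0.138) or WT replicate 3 (0.0956).

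The 3 surface proteins are used to find fibroblasts and pericytes. *Pdgfra*, the PDGF receptor α of fibroblasts, had 66, 31 and 23 counts in PP2A KO and 156, 127 and 68 in WT, with a log2 fold change of -1.33 (SE 0.36, adjusted p = 0.0167 by edgeR). Its adjusted p was 0.0576 without PP2A KO replicate 2 and 0.0571 without WT replicate 2. *Pdgfrb*, the receptor β of pericytes, had 102, 59 and 69 counts in PP2A KO and 228, 183 and 175 in WT and fell by 1.14 (adjusted p = 5.96e-04 by edgeR), the groups being separate. *Thy1*, a glycoprotein of fibroblasts and T cells, had 15, 10 and 19 counts in PP2A KO and 30, 88 and 17 in WT. WT replicate 2 stood far above the others, the groups overlapped, and the log2 fold change of -1.42 had an adjusted p of 0.0888 by edgeR and 0.0369 with the replicate block. Without WT replicate 2 the log2 fold change of *Thy1* was -0.44 (adjusted p = 0.388), and its adjusted p was 0.0466 without WT replicate 1 and 0.0199 without WT replicate 3.

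The members' levels also moved together from library to library inside each group. PP2A KO replicate 1 was the highest PP2A KO library in 29 of the 42 members (69.0%) and in 35.6% of all genes tested, and PP2A KO replicate 3 was the lowest in 28 (66.7%, beside 32.6%). WT replicate 3 was the lowest WT library in 34 of 42 (81.0%), beside 37.2% of all genes. Among the 35 members that fell, the median deviation from the group's mean log2 CPM was 0.22 in PP2A KO replicate 1, 0.02 in replicate 2 and -0.21 in replicate 3. In WT it was 0.14, 0.11 and -0.27. Over all genes it ran from -0.01 to 0.01 in these libraries, rounded to 2 decimals. These shifts are smaller than the difference between the genotypes. The share of all raw counts that went to the members was 0.105 to 0.119% in PP2A KO and 0.129 to 0.156% in WT. With TMM scaling the sums of all members, *Spp1* included, overlapped, at 1118 to 1271 CPM in PP2A KO and 1176 to 1435 CPM in WT. Summed over the 13 collagen chains, the PP2A KO libraries held 58.8, 51.1 and 40.7 CPM and the WT libraries 176.5, 168.4 and 126.4 CPM.

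**Figure D4:**
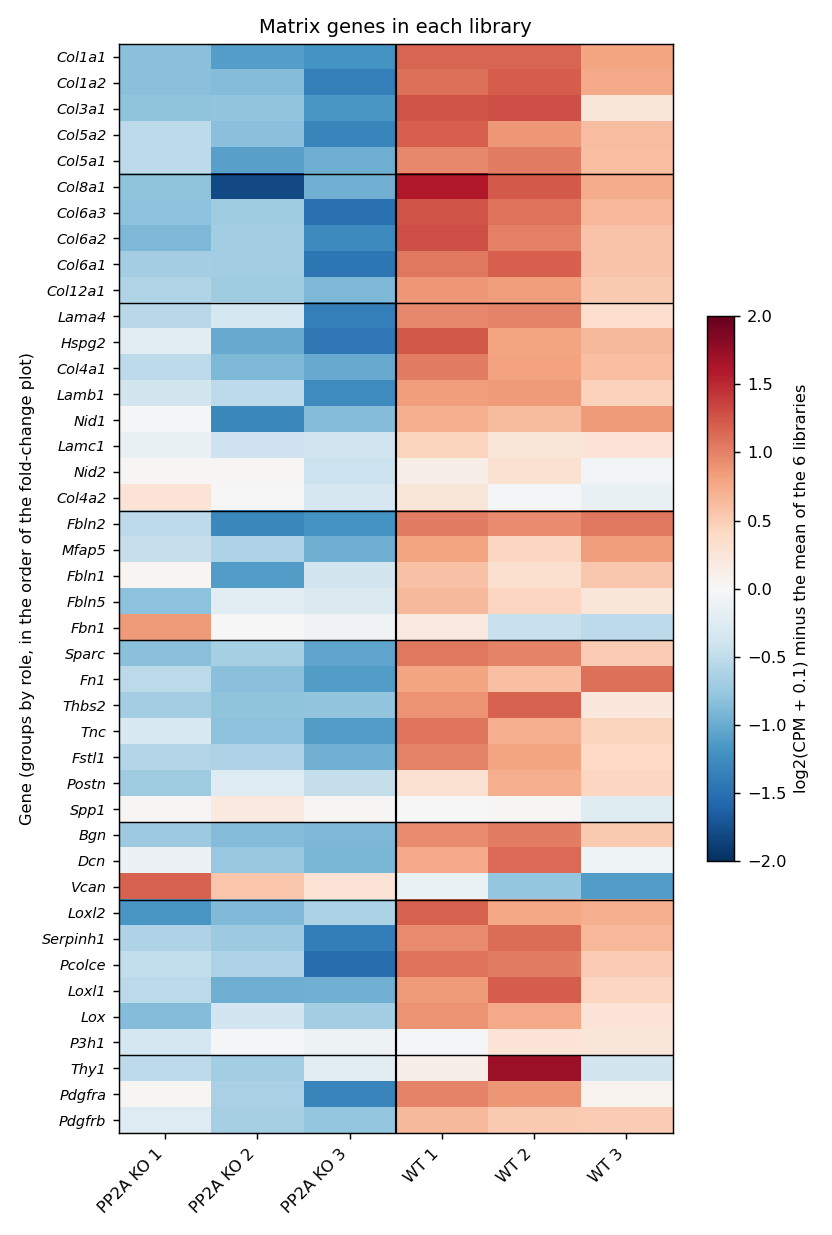
Deviation of each member from its own mean log2 CPM over the 6 libraries (pseudocount 0.1 CPM), by role and library. Most members are high in the 3 WT libraries and low in the 3 PP2A KO libraries, with WT replicate 3 the palest of WT.

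Markers of mesenchymal cells outside the 46 members were counted at low levels, and fell in part with them. Of 14 fibroblast and stromal markers, 9 were tested and 5 fell. The same rule called 19.0% of all genes tested lower and 18.1% higher. Among those that fell were *Prrx1*, a transcription factor of limb and craniofacial mesenchyme (log2 fold change -1.74, adjusted p = 8.92e-04 by edgeR), and *Nt5e*, which encodes CD73 (-1.55, adjusted p = 5.51e-05 by edgeR). *Twist2* also fell, with 6, 5 and 7 counts in PP2A KO and 26, 21 and 13 in WT. It passed the filter on low counts through its WT libraries. *Fap* went the other way at low counts, with every PP2A KO library above WT, but was not called (0.56, adjusted p = 0.177 by edgeR). The 14 summed to 17.9 to 21.9 CPM in PP2A KO and 33.1 to 47.2 CPM in WT, with *Pdpn* as the most abundant of them and 7.40 to 8.27 and 16.9 to 23.9 CPM without it, and *Tcf21* was at 0 in every library. Of 10 smooth muscle and pericyte markers, 5 were tested and all 5 fell, beside the 19.0% of all genes. *Actg2* had a log2 fold change of -2.26 (adjusted p = 0.00165 by edgeR), *Tagln* (transgelin) -2.03 (adjusted p = 2.14e-04 by edgeR) and *Acta2* (smooth muscle actin) -1.97 (adjusted p = 4.00e-05 by edgeR). Counts of *Actg2* were 14, 7 and 7 in PP2A KO and 44, 73 and 38 in WT. That gene passed the filter on low counts through its WT libraries. These 10 summed to 5.73 to 6.81 CPM in PP2A KO and 16.5 to 21.6 CPM in WT, while *Myh11*, which defines mature smooth muscle, had at most 5 counts. In bulk RNA, fewer cells of a type and less RNA per cell cannot be told apart, and the part of these cells in the values of the matrix genes was not tested.

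Of the 10 macrophage markers, all tested, 3 rose (*Fcgr1*, *Spi1* and *Mertk*) and 7 were not called, beside 18.1% of all genes tested called higher. The summed levels of the 10, given above, did not overlap between the groups. Taken singly, 5 of the 10 lay higher in every PP2A KO library than in WT, as did 24.0% of all genes tested. The 8 osteoblast and chondrocyte markers summed to 18.0 to 22.5 CPM in PP2A KO and 19.6 to 22.0 CPM in WT, and *Runx2* alone made up nearly all of this sum (19.5 ± 2.15 CPM in PP2A KO and 18.9 ± 1.44 CPM in WT, SD, n = 3 each, log2 fold change 0.04, not called). Without *Runx2* the list summed to 0.359 to 0.660 CPM in PP2A KO and 1.59 to 2.37 CPM in WT, and the groups did not overlap. Of the 2 markers tested *Sox9* fell by 1.86 (adjusted p = 0.00456 by edgeR), with 16, 5 and 8 counts in PP2A KO and 31, 51 and 39 in WT. It passed the filter on low counts through its WT libraries. *Alpl*, *Col2a1* and *Sp7* had too few counts for the test, and *Bglap* and *Acan* were at 0 in every library. Endothelial markers split, *Cdh5* and *Kdr* being higher (1.40 and 1.09) and *Vwf* lower (-0.66) among 4 tested of 8, and *Cldn5* was at 0. Of the adipocyte markers, *Fabp4*, which macrophages also express, was the only one tested of 5 and fell by 1.19 (adjusted p = 0.00174 by edgeR), with *Lep* at 0. *Ppbp* and *Itga2b*, the 2 tested of 6 megakaryocyte and erythroid markers, fell, with log2 fold changes of -0.78 and -0.65. For the falls in these marker lists, the share of all genes tested that were called lower was 19.0%. Lymphocyte markers reached at most 25 counts and neutrophil and mast cell markers at most 37 counts in any library, with 1 gene of each list tested and not called.

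**Figure D5:**
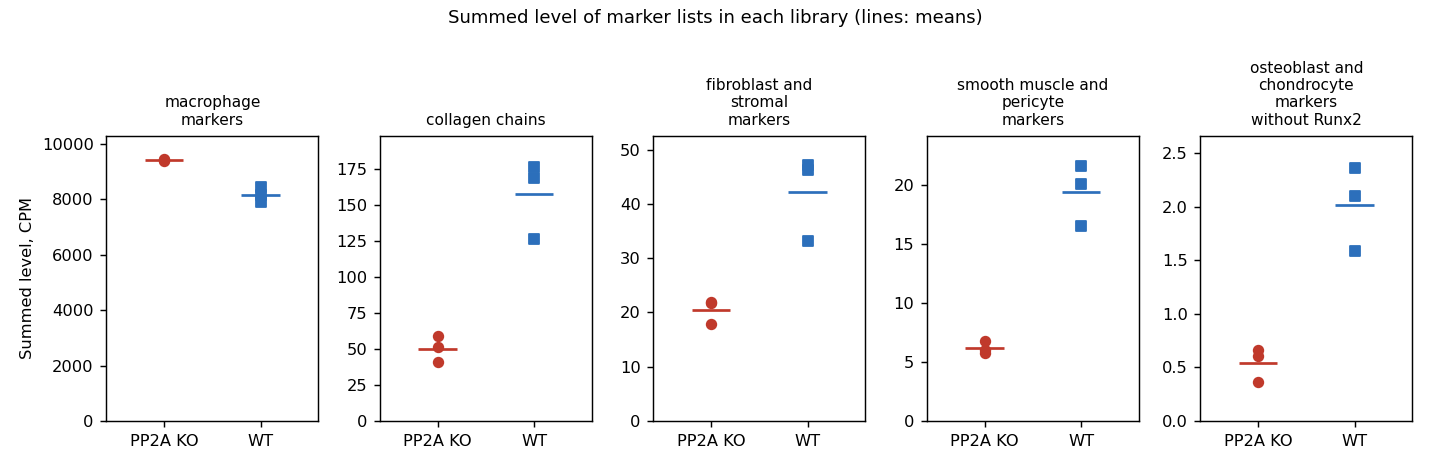
Summed level (CPM) of 4 marker lists (osteoblast and chondrocyte markers without *Runx2*) and of the 13 collagen chains in each library (points; lines are group means), each panel with its own axis from 0. The sums of collagen chains, fibroblast markers and smooth muscle markers are lower in all 3 PP2A KO libraries than in any WT library. So is the sum of osteoblast and chondrocyte markers without *Runx2*, and the sum of macrophage markers is higher.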

How the data were processed

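RNA-Seq counts of 6 BMDM libraries (3 PP2A KO, 3 WT, by title and genotype labels) were analysed. The authors deposited 1 table of whole-number read counts per gene and library, without normalization. The submitters' processing notes name fastp 0.20.0, kallisto 0.46.1, STAR 2.7.1a, HTSeq 0.11.2, edgeR 3.34.0, limma 3.48.3 and the builds mm10 and GRCm38. The annotation release and the strand setting of the counting are not given in the sources used here, although the library kit was directional, so overlapping genes may share reads.

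Genes passed filterByExpr of edgeR 4.0.16 (minimum count 10, minimum total 15, in R 4.3.3), were scaled by TMM and were tested for genotype by the quasi-likelihood test (glmQLFit and glmQLFTest) with Benjamini-Hochberg adjustment over all 13680 genes kept. CPM used TMM factors, and RPKM used the union exon length of GENCODE M21, whose symbols matched 98.3% of the rows. Replicates of a group differed by more than counting noise. Replicate numbers 1 to 3 in the labels are shared by both genotypes. Same-numbered libraries deviated together from their group means (correlations of 0.323, 0.171 and 0.362 over 13680 genes), so the replicate number also served as a block in a further fit.

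The members and all lists were chosen with earlier results of these data known. Every member may be named. Of other lists, the called genes with the largest change are named, up to 3 per direction. *Plod1*, *Thbs1*, *Tgfbi*, *Adgre1*, *Lyz2*, *Fap*, *Chad*, *Ogn*, *Fmod*, the markers at or near 0, the sums without *Runx2* or *Pdpn* and the chain ratios were chosen after their values were seen. Alternatives were upper-quartile and RLE scaling, a fit of unfiltered genes, a mean count of at least 50, DESeq2 1.42.0, limma-voom (limma 3.58.1), the block, and each library left out. The tests were run on simulated counts first. Motifs were searched in RefSeq windows of GRCm38.p6, and windows over exons were not shown. Exact permutation tests were 2-sided.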

Additional observations from a re-analysis of the deposited data

How the results depend on the processing

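All 35 members that fell kept their direction in every alternative that tested them, and the 31 tested at a mean count of at least 50 were all still called. The number of members called lower was 31 to 37 over all alternatives and 33 to 36 with 1 library left out. At the study's threshold it was 26 to 33, and the median log2 fold change of the members was -1.81 to -1.50. Members called higher numbered 2 without the filter, 3 with the replicate block (*Vcan*, *Fbn1* and *Spp1*) and 1 to 2 with 1 library left out. At the study's threshold, 0 to 1 were higher with 1 library left out, *Vcan* being lost without PP2A KO replicate 1, PP2A KO replicate 2 or WT replicate 2. With RLE scaling 2 members had all PP2A KO libraries above WT, *Spp1* being the second. The log2 fold change of *Col4a2* ran from -0.20 to 0.12 with 1 library left out and changed sign, without a call, to 0.12 without PP2A KO replicate 3 and to 0.10 without WT replicate 1. Of the other matrix lists, 16 genes fell at a mean count of at least 50, where fewer genes were tested, and 18 to 28 with 1 library left out (18 without WT replicate 2). In these lists 12 rose with the replicate block and 4 to 8 with 1 library left out (4 without PP2A KO replicate 1). Where no cause is given, the cause was not tested. The block called *Fbln1* and *Thy1* lower and *Fbn1* and *Spp1* higher, and changed no other call of a member. With 3 libraries per group an exact test of 1 value cannot go below p = 0.1. The filter on low counts asked for about 10 counts in 3 libraries. *Mfap5*, *Fbln1* and *Lama4* passed it through their WT libraries, as did *Prelp*, *Podnl1*, *Ccn4*, *Ccn5*, *Lama5*, *Col27a1* and *Loxl4*, among others, of the other lists. The same held for *Actg2*, *Twist2* and *Sox9*, among others, of the marker lists. Genes this low in PP2A KO were tested only where WT was higher, so their falls are not independent of the filter.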

Other observations

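The matrix genes outside the 46 members were described with 6 further lists of 104 genes, of which 57 were tested. By the quasi-likelihood test of edgeR 28 fell and 7 rose, beside 19.0% lower and 18.1% higher over all genes tested, so that the share that rose was below that of all genes, with a median log2 fold change of -0.45 beside -1.64 for the members. Among the matricellular CCN proteins and thrombospondins 6 of 9 tested fell. *Ccn5* had -2.47, *Ccn4* -2.29 and *Ccn2* (connective tissue growth factor) -1.62 as log2 fold changes. Counts in PP2A KO were 4, 13 and 2 for *Ccn5* and 11, 6 and 9 for *Ccn4*, and these 2 genes passed the filter on low counts through their WT libraries. *Thbs1*, at 3325 CPM in PP2A KO and 2935 CPM in WT, and *Tgfbi* were not called, with log2 fold changes of 0.18 and 0.10 (adjusted p = 0.237 and 0.532 by edgeR), and *Thbs1* had an adjusted p of 0.00376 with the replicate block. Both small leucine-rich proteoglycans tested of 11 fell, *Prelp* with -1.65 and *Podnl1* with -1.22. Counts in PP2A KO were 7, 10 and 11 for *Prelp* and 6, 5 and 4 for *Podnl1*, and both passed the filter on low counts through their WT libraries. *Chad*, not tested, went the other way, with 9, 3 and 5 counts in PP2A KO and 0, 2 and 1 in WT. Also not tested, *Ogn* had 2, 0 and 1 counts in PP2A KO and 17, 7 and 7 in WT. *Fmod*, likewise not tested, had 4, 5 and 0 and 18, 12 and 7. In both, every PP2A KO library lay below WT. Of 6 elastic fibre genes tested, 4 fell, with *Ltbp2*, a latent TGF-β binding protein, at -1.30, and of 7 laminin and basement membrane genes 2 fell, *Lama5* (-1.31) and *Lamb2* (-0.53). *Lama5* passed the filter on low counts through its WT libraries.

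Of 21 enzymes of collagen synthesis tested, 9 fell, including the procollagen C-proteinase *Bmp1* (-1.75, adjusted p = 5.51e-05 by edgeR), the lysyl oxidase *Loxl4* (-1.71) and the prolyl isomerase *Fkbp10* (-1.67), and 4 rose, a share near the 18.1% of all genes. *P4ha1*, a prolyl 4-hydroxylase subunit, had 276 CPM in PP2A KO and 173 CPM in WT (log2 fold change 0.67, adjusted p = 7.10e-04 by edgeR), and *Plod3* had 267 and 178 CPM (0.58, adjusted p = 5.02e-04 by edgeR). *P3h3* (0.43) and *Plod1* (0.17) were the other two that rose. Of 31 collagen chains outside the members, 12 were tested, 5 fell (by most *Col27a1* -1.24, *Col16a1* -1.24 and *Col5a3* -1.09) and 3 rose (*Col9a3* 0.83, *Col11a2* 0.52 and *Col20a1* 0.34). *Col27a1* passed the filter on low counts through its WT libraries.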
